A study of Rattus norvegicus with 6 samples.

Results

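Purified retinal ganglion cells (RGCs) were prepared from rat retina in 2 separate cultures, and each culture gave 3 arrays: cells left untreated (Alone), cells given the astrocyte-secreted protein glypican 4 (Gpc4) and cells given thrombospondin 1 (TSP1). The comparison here set the 3 arrays of culture 2 (replicate number 2 in the labels) against the 3 of culture 1 within each treatment. A probe set, the group of short probes that reports 1 transcript, was called where its adjusted p was under 0.05 and its difference had the same sign in all 3 treatments. This held for 174 of 31042 probe sets (0.561%), of which 134 (0.432%) were higher and 40 (0.129%) lower in culture 2. Counted as genes, with 1 probe set each, 123 of 14217 differed (0.865%), 93 higher (0.654%) and 30 lower (0.211%).

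All 6 arrays held total RNA of rat neurons labelled as postnatal day 6 and kept for 12 days in medium with BDNF and CNTF, and the methods add forskolin. The methods give Sprague Dawley pups of both sexes, a range of pup ages and a shorter minimum time in culture. Recombinant mouse TSP1, or His-tagged Gpc4 secreted by the human kidney cell line HEK293, was added for 12 hours, and each array carried RNA from 2 pooled wells. No transgene or deletion is given for the animals. Dissociated retina had been passed over lectin-coated dishes to take out microglia and fibroblasts, RGCs were then caught with the T11D7 antibody, and the dividing-cell inhibitor FUDR was added a day later. Each culture is 1 cell preparation, so the p-values below measure the spread among arrays of the same 2 preparations and not the spread among preparations. That the same replicate number marks the same culture in every treatment was taken from the labels and from the methods, which state 2 cultures. No source used here says whether the arrays of a culture were hybridized together, so culture and such a batch cannot be told apart.

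RGCs are the output neurons of the retina and are a small minority of its cells, so a pure culture depends on removing other cells and capturing Thy1-bearing ones. Fibroblasts and mural cells of the eye's membranes and vessels adhere and divide in culture and are rich in collagen, proteoglycan and actin-binding transcripts. Microglia and macrophages carry the complement C1q genes and the Fc receptor signalling chains.

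No RGC gene was called between the cultures, but only 0.865% of all genes were, so a list this short would mostly hold no call. Of 14 listed, 12 had a named probe set, and they had a median difference of -0.02 (culture 2 minus culture 1, log2 scale, here and below) against 0 over all genes. Slc17a6, the vesicular glutamate transporter of RGCs, measured 13.22, 13.24 and 13.26 in culture 1 and 13.22, 13.19 and 13.21 in culture 2, always given here in the order Alone, Gpc4, TSP1 as log2 RMA values. Rbpms, an RNA-binding protein that marks RGCs in the retina, measured 11.73, 11.63 and 11.74 against 11.61, 11.59 and 11.55. Thy1, the surface protein used to capture the cells, measured 11.67, 11.50 and 11.47 against 11.61, 11.44 and 11.50. These values lie far above the array medians of 5.96 to 5.99, and the largest of the 12 differences were -0.21 for Pou4f1 and 0.15 for Tubb3, both short of the threshold. The sample label was thus met by its defining markers in all 6 arrays, while Pou4f2 and Pou4f3 have no named probe set.

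The difference between the cultures was broad but small for most probe sets. The median size of the difference within a treatment was 0.11 in the Alone pair, 0.10 in the Gpc4 pair and 0.11 in the TSP1 pair. Culture took up 33.1% of the sum of squares over all probe sets with 1 degree of freedom, treatment 40.5% with 2 and the remainder 26.3% with 2. The first principal component (33.9% of the variance) put the culture 1 arrays at 16.5, 7.9 and 15.9 and the culture 2 arrays at -12.8, -14.9 and -12.7. The differences of the 3 pairs correlated across probe sets at 0.29 (Alone and Gpc4), 0.35 (Alone and TSP1) and 0.37 (Gpc4 and TSP1), a description over probe sets that share normalization and are not independent. Of all probe sets, 9731 (31.3%) had the same sign in the 3 pairs and 3510 (11.3%) an unadjusted p under 0.05. Leaving out any 1 array left 1 residual degree of freedom and no call. All 174 kept their sign, but the same-sign rule fixed that in advance. Without the treatment block 69 probe sets were called.

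**Figure D1:**
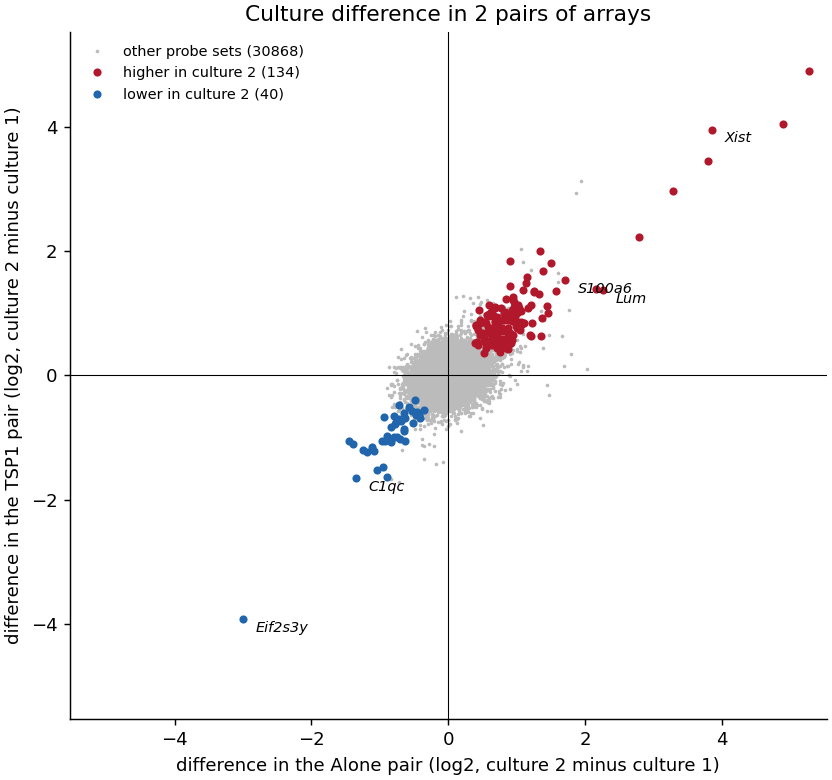
Difference between the cultures in the Alone pair (x axis) and in the TSP1 pair (y axis), both log2, for every probe set. The 134 probe sets called higher (red) and 40 called lower (blue) lie in the upper right and lower left by the sign rule that chose them, with Xist probe sets and Eif2s3y farthest out.

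The values of culture 2 spread slightly wider, with standard deviations over probe sets of 2.41 to 2.43 against 2.39 to 2.40 in culture 1. The median difference was -0.03 for probe sets with a mean from 2 to 4 and -0.04 from 4 to 6, and between 0.01 and 0.02 above that, all small against the called differences, whose smallest size was 0.47. Detection calls were not used here, so a value around or under the median of its array may be background. Of the called genes, 20 of 93 higher and 13 of 30 lower had a mean under 6.

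The largest differences were in sex-linked genes. Xist, the RNA that coats the inactive X chromosome of female cells, measured 5.46, 5.36 and 5.19 in culture 1 and 9.32, 9.12 and 9.15 in culture 2. The 2 cultures were far apart in every treatment, by 3.86 ± 0.08 (14.5-fold, limma adjusted p = 1.47e-06). The value after ±, here and below, is the SE from the limma fit to the 3 pairs. That fit shares the spread across probe sets, so this SE can be smaller or larger than that of a gene's own 3 pairs. The other 3 Xist probe sets gave 4.83, 4.37 and 3.08. Eif2s3y, the Y-linked copy of a translation initiation factor gene, went the other way, with 8.65, 8.93 and 9.25 in culture 1 and 5.65, 5.79 and 5.32 in culture 2 (-3.36 ± 0.16, adjusted p = 0.000228). Its culture 2 values lie below the median of their arrays. Its X-linked partner Eif2s3 was 0.47 higher in culture 2 (9.70, 9.70 and 9.64 against 10.14, 10.19 and 10.13, adjusted p = 0.0338). Uty, also Y-linked, did not pass (0.45 ± 0.16, adjusted p = 0.365), and Sry, the testis-determining gene, lay between 3.21 and 3.35 in all arrays. Ddx3y, Kdm5d and Usp9y have no named probe set. Both cultures are described as made from pups of both sexes, and the sex of the cells was not given per array.

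Fibroblast genes were higher in culture 2. Of 20 genes on the fibroblast list, 8 were called higher and none lower, against 0.654% of all genes called higher. The median difference was 0.585, and 18 of the 20 differences were above 0, against 7056 of 14217 over all genes. The median was 0.675 in the Alone pair, 0.35 in the Gpc4 pair and 0.69 in the TSP1 pair, and the mean level of the list was 5.98 to 6.33 in culture 1 and 6.70 to 6.96 in culture 2. In bulk RNA, fewer cells of a type and less RNA per cell cannot be told apart.

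Lum, a small proteoglycan that spaces collagen fibrils, led the list with 4.68, 5.26 and 3.49 in culture 1 and 6.95, 6.99 and 4.87 in culture 2. It was higher in culture 2 in each treatment, by 1.79 ± 0.15 (3.47-fold, adjusted p = 0.00307), although the TSP1 array of culture 2 lies below the Gpc4 array of culture 1. Dcn, the related proteoglycan decorin, had the same layout, with 5.59, 6.41 and 4.48 against 7.75, 7.48 and 5.88 (1.54 ± 0.18, adjusted p = 0.0102). Both genes were lowest in the TSP1 array of each culture. Mgp, an extracellular inhibitor of calcification, was abundant, at 9.94, 10.07 and 9.36 against 11.10, 11.09 and 10.44, with no overlap (1.09 ± 0.07, adjusted p = 0.00153). The others called were the collagen chain Col5a2 (0.94), the matricellular proteins Thbs2 (0.83) and Postn (0.71), the proteoglycan Bgn (0.77) and Twist1 (0.60), a transcription factor of mesenchyme.

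The fibrillar collagens Col1a1 and Col3a1 did not pass. Col1a1 measured 6.61, 6.83 and 6.51 in culture 1 and 7.10, 7.06 and 7.27 in culture 2 (0.49 ± 0.10, adjusted p = 0.138), which do not overlap but miss the threshold. Col3a1 differed by 1.04 with a large spread (SE 0.22, adjusted p = 0.146), as its culture 2 values ran from 6.71 to 7.82. Lox, which crosslinks collagen, differed by 1.22 (adjusted p = 0.0964) and Fn1, fibronectin, by 0.57 (adjusted p = 0.063). Col5a1 and Dpt differed by -0.02 and -0.09.

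**Figure D2:**
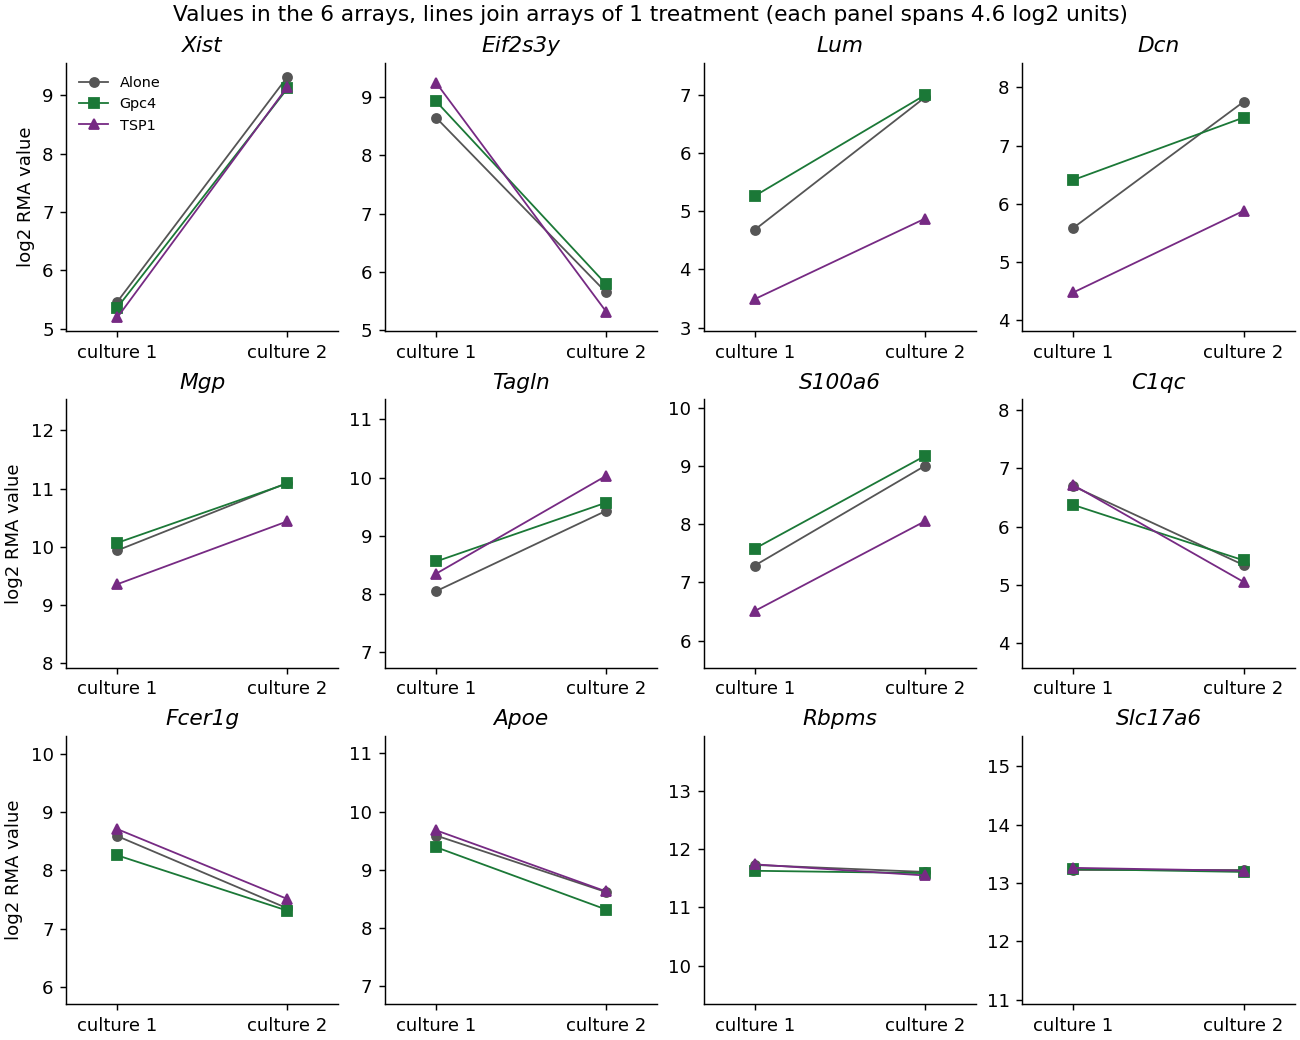
Log2 RMA values of 12 genes in culture 1 and culture 2, with a line for each treatment and panels of equal span. Xist, Lum, Dcn, Mgp, Tagln and S100a6 go up in every treatment, Eif2s3y, C1qc, Fcer1g and Apoe go down, and the RGC genes Rbpms and Slc17a6 are level.

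Mural cell genes were split. Of 13 genes on the pericyte and smooth muscle list, 3 were higher and 10 did not pass, with a median of 0.12. Over all genes 0.654% were called higher. Tagln, an actin-binding protein of contractile cells, measured 8.05, 8.56 and 8.35 against 9.43, 9.57 and 10.03 (1.36 ± 0.12, adjusted p = 0.00367), with no overlap. Abcc9, a potassium channel regulator of pericytes, differed by 0.84 (0.30 and -0.19 at its other probe sets, not called) and Cnn1, calponin, by 0.71. Against these, Acta2, smooth muscle actin, differed by -0.05 (adjusted p = 0.891), and the pericyte genes Pdgfrb and Rgs5 by -0.10 and -0.01. Rgs5 lay between 3.48 and 3.66 on every array. Endothelial cell genes gave no call in 12, against 0.865% called over all genes, with a median of -0.065. Pecam1, a junction protein of endothelial cells, lay between 3.27 and 3.72.

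Other genes among the 15 largest higher in culture 2 belonged to no cell type list or to a single one. S100a6, a calcium-binding protein of dividing and mesenchymal cells, measured 7.29, 7.58 and 6.51 against 9.0, 9.17 and 8.05 (1.61 ± 0.07, adjusted p = 0.000168), the smallest adjusted p of any named gene after Xist. Esm1, a proteoglycan secreted by endothelial tip cells, measured 5.27, 6.00 and 4.92 against 6.18, 7.75 and 6.77 (1.503 ± 0.17). Il33, a nuclear cytokine of stromal and glial cells, measured 5.34, 5.83 and 5.58 against 6.60, 7.48 and 6.93 (1.42 ± 0.09). For these 3 genes no value of culture 2 reached down to those of culture 1. The receptor of IL-33, Il1rl1, was called too, at 6.04, 6.82 and 5.34 against 6.66, 7.99 and 6.37 (0.94 ± 0.11, adjusted p = 0.0102). Acss3, an acyl-CoA synthetase of mitochondria, was higher by 1.18, the G protein subunit Gna14 by 1.17 and the secreted matrix protein Olfml3 by 1.08. Gja1, connexin 43, was higher by 1.12 at its brightest probe set, while its other 2 probe sets gave 0.01 and -0.12.

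Of the 15 genes with the largest positive difference, 10 had values that did not overlap between the cultures, and 5 (Lum, Dcn, Ifitm3, Acss3 and Olfml3) had values that overlapped. Over all genes 7.83% had the 3 values of culture 2 above those of culture 1 and 6.84% below. Of all called genes 72 of 93 higher and 28 of 30 lower did not overlap, including all 15 of the largest lower ones. The calls were made on these same values, so these counts are no separate support for them. The matrix and adhesion genes below these 15 included Sparc (1.00, and 1.06 at a second probe set), Col8a1 (1.06), the basement membrane chains Col4a1 (0.81) and Col4a5 (0.83), Tnc (1.04), Cdh11 (0.88) and the collagen chaperone Serpinh1 (0.80). The cytoskeletal or membrane genes Cald1 (0.99), Vim (0.80), Cav1 (0.82), Myof (0.92) and Pdpn (0.96) were called as well. Of the 123 called genes 32 had further probe sets, 49 in all, of which 12 were called in the same direction and 12 had the opposite sign without a call. Those 12, with means from 3.28 to 5.63, included probe sets of Cald1 (-0.16), Cdh11 (-0.21) and Il1rl1 (-0.04).

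Ccn2, a matricellular protein made downstream of TGF-beta and of mechanical tension, measured 9.21, 9.68 and 9.91 against 10.31, 10.47 and 11.29 (1.09 ± 0.11, adjusted p = 0.00593). Its promoter is shown because it is the called gene with the most matches to a TEAD site, GGAATG or its complement CATTCC, the motif through which tension-responsive coactivators reach DNA. The 250 bases before the start are from RefSeq (assembly GRCr8, chr1:22624615-22624864, minus strand), with the 3 matches in capitals, which begin 166, 101 and 92 bases before the start.
Ccn2 promoter: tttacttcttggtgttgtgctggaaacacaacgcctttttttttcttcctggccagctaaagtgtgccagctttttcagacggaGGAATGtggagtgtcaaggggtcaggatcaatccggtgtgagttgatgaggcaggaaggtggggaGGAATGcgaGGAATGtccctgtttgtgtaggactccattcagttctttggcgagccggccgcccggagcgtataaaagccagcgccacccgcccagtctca
A TEAD match was present in 10 of the 75 promoters found for called higher genes (13.3%), in 3 of 19 for lower genes (15.8%) and in 3228 of 27457 promoters in all (11.8%), so the share among the called genes was close to that of all promoters. A CArG box, the binding motif of serum response factor, was found in 1 of 75 (1.33%), 0 of 19 and 1.5% of all. The motifs were picked after the genes were seen, and a match describes letters only.

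Microglia and macrophage genes were lower in culture 2. Of 22 measured genes on the list 6 were called lower and none higher, against 0.211% of all genes called lower. The median difference was -0.46, and 19 of the 22 differences were below 0, against 6973 of 14217 over all genes. Over the members with a mean of at least 6 over the 6 arrays the median was -0.73. That filter uses the values being compared. C1qa (mean 6.57 in culture 1 and 5.58 in culture 2) and Ctss (7.03 and 5.97) passed it only through culture 1. The -0.73 is thus no evidence of a larger difference in brighter genes. The median was -0.365 in the Alone pair, -0.35 in the Gpc4 pair and -0.59 in the TSP1 pair. The mean level of the list was 5.84 to 6.18 in culture 1 and 5.40 to 5.50 in culture 2. Most of its genes were dim, with 14 of 22 under a mean of 6.

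The 3 genes of complement C1q, which microglia and macrophages secrete, were all lower. C1qc measured 6.69, 6.37 and 6.71 in culture 1 and 5.34, 5.42 and 5.05 in culture 2 (-1.32 ± 0.13, adjusted p = 0.00468). C1qb measured 6.18, 5.81 and 6.23 against 4.79, 5.04 and 5.13 (-1.09 ± 0.11, adjusted p = 0.00657). C1qa measured 6.60, 6.27 and 6.84 against 5.41, 5.72 and 5.60 (-0.99 ± 0.13, adjusted p = 0.0218). Each C1q gene was separated without overlap, and the culture 2 values lay below the array medians. Fcer1g, the signalling chain of Fc receptors, was brighter, at 8.59, 8.26 and 8.71 against 7.35, 7.31 and 7.51 (-1.13 ± 0.08, adjusted p = 0.00201). Tyrobp, the adaptor of TREM2 and related receptors, was lower by 0.95 (adjusted p = 0.015) and the mannose receptor Mrc1 by 0.75 (adjusted p = 0.0271).

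The cathepsin gene Ctss measured 6.51, 6.72 and 7.86 against 5.79, 5.98 and 6.14, and lysozyme Lyz2 8.31, 8.16 and 9.28 against 7.47, 7.58 and 7.61. Neither gene passed (adjusted p = 0.0664 and 0.0745), and in both the TSP1 array of culture 1 was the highest. Aif1 differed by -0.37 at its brightest probe set and by -1.36 (adjusted p = 0.00555) at a dimmer one, and Cybb and Laptm5 also passed only at a dimmer probe set. The microglial receptors Cx3cr1 and P2ry12 differed by -0.06 and 0.04, Trem2 by -0.10 and Ptprc (CD45) by -0.16, none past the threshold.

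Genes outside the microglia and macrophage list made up most of the rest of the 15 largest lower ones. Adgre1, which encodes the macrophage antigen F4/80, measured 8.24, 8.07 and 8.32 against 7.15, 6.76 and 7.10 (-1.21 ± 0.08, adjusted p = 0.00148). The chemokine Ccl6 differed by -1.11, the lectin Clec4a3 by -1.08, the platelet and macrophage chemokine Pf4 by -0.99 and Rac2, the GTPase of blood cells, by -0.90. The integrin chains Itgal (-0.83) and Itgb2 (-0.60), which pair as LFA-1, were both lower. Apoe, the lipid carrier of macrophages and glia, measured 9.59, 9.39 and 9.68 against 8.62, 8.32 and 8.63 (-1.03 ± 0.07, adjusted p = 0.00158), and a second probe set with values near 3.6 gave 0.11. Complement C3 measured 7.42, 7.56 and 7.90 against 6.63, 6.48 and 6.91 (-0.95 ± 0.08). The selenium carrier Selenop (-0.95) and the dicarboxylate transporter Slc13a3 (-0.89) completed the 15, and a second probe set of Selenop gave 0.18. The chemokine Ccl4 was lower by 0.50 and Slamf9, a receptor of myeloid cells, by 0.52.

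The promoter of Slamf9 is shown as 1 of the 3 called lower genes, with Selenop and Ptprh, that hold a match to the site of PU.1, the transcription factor of myeloid cells (GAGGAAGT or its complement ACTTCCTC). The 250 bases before its start (RefSeq, assembly GRCr8, chr13:87474077-87474326, plus strand) hold the match, in capitals, 15 bases before the start.
Slamf9 promoter: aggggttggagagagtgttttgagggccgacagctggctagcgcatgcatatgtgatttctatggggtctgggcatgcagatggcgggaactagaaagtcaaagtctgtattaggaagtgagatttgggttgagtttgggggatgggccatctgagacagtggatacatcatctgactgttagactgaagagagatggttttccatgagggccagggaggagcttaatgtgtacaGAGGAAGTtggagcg
The site was present in 3 of 19 promoters of lower genes (15.8%), 1 of 75 of higher genes (1.33%) and 2.04% of all promoters. Promoters were found for 19 of 30 lower genes and 75 of 93 higher ones, the difference in share was not tested, and the counts are small.

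Other retinal cell types showed few calls. Among Muller glia genes Vim and the progenitor factor Sox2 (0.64) were higher and Apoe lower, although the other 3 probe sets of Sox2 gave 0.09, 0.04 and 0.01, and the list median was 0.08 over 10 genes. The astrocyte list gave only Gja1, and Gfap, the astrocyte intermediate filament, differed by 0.15 (adjusted p = 0.561). Amacrine genes gave Gad1, the GABA-synthesizing enzyme, at 7.14, 7.21 and 7.24 against 7.85, 7.69 and 7.89 (0.61 ± 0.08, adjusted p = 0.0157, with -0.17 at a dimmer probe set), and no other member passed of 11. No gene was called on the lists of photoreceptors (17 genes measured), bipolar cells (6), horizontal cells (4), oligodendrocyte lineage (13), erythroid cells (6) or other leukocytes (7). Their medians lay between -0.10 and 0.00. At the 0.865% called over all genes, lists of this length would mostly hold no call. The lens list gave only Cryab, a small heat shock protein also made outside the lens (7.11, 7.42 and 6.46 against 8.06, 8.38 and 7.67), and the other 9 lens genes all had a difference below 0.

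**Figure D3:**
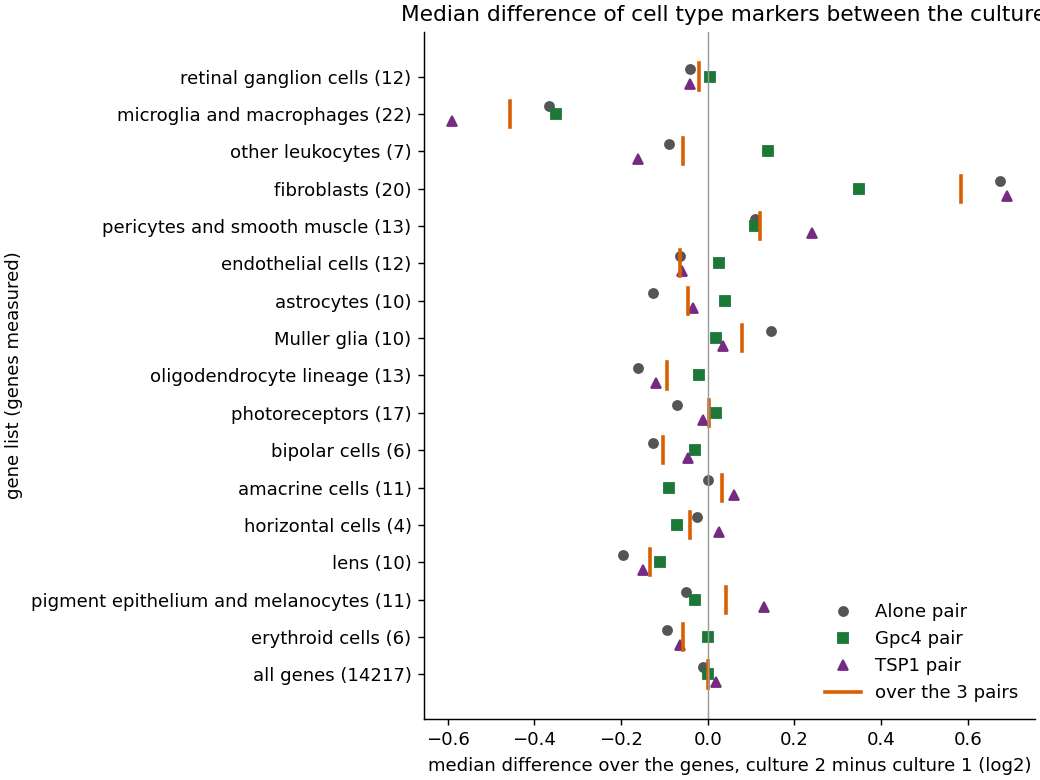
Median log2 difference (culture 2 minus culture 1) over the genes of each cell type list, for each treatment pair (symbols) and over the 3 pairs (orange bars), with the number of genes measured in brackets. Fibroblasts at 0.585 and microglia and macrophages at -0.46 lie farthest from 0, and all genes lie at 0. Some other lists also keep to 1 side of 0 in the 3 pairs, at smaller sizes. Among them are pericytes and smooth muscle (0.11, 0.11 and 0.24) and lens (-0.195, -0.11 and -0.15).

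Genes of melanin synthesis stood out in 2 of the 3 culture 2 arrays. Dct, dopachrome tautomerase, measured 4.28, 4.19 and 4.41 in culture 1 and 6.22, 4.33 and 7.55 in culture 2. Tyrp1 measured 4.46, 4.21 and 4.22 against 6.06, 4.41 and 5.87, and the melanosome protein Pmel 5.27, 5.15 and 5.08 against 6.09, 5.11 and 6.19. In all 3 genes the Alone and TSP1 arrays of culture 2 were high and its Gpc4 array was at the level of culture 1. On the list of pigment epithelium and melanocytes, 0 of 11 genes were called, against 0.865% of all genes, and the median was 0.04. The 3 genes did not pass (adjusted p = 0.229, 0.155 and 0.289), and Tyr, Mlana and Rpe65, further pigment cell genes, lay between 3.80 and 4.62 in all arrays. They were singled out after their values were seen.

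**Figure D4:**
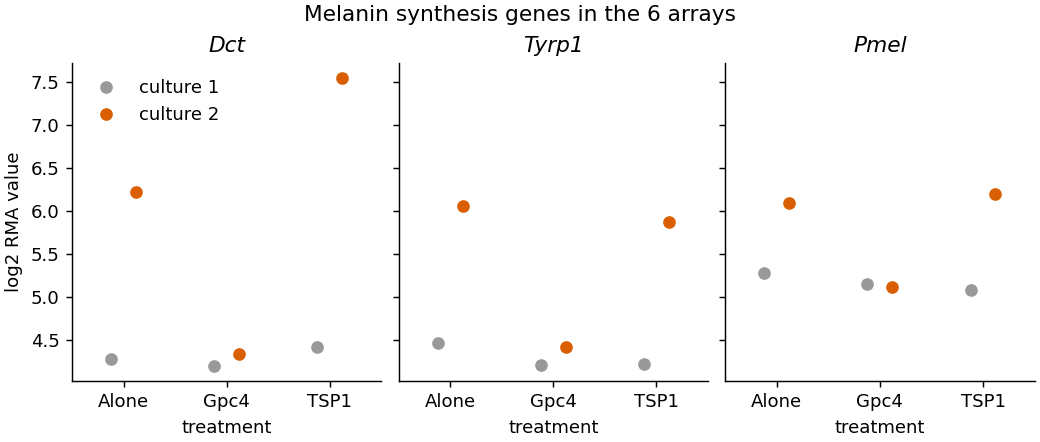
Log2 RMA values of Dct, Tyrp1 and Pmel by treatment in culture 1 (grey) and culture 2 (orange). The culture 2 arrays of Alone and TSP1 stand above all others, at 6.22 and 7.55 for Dct, and the Gpc4 array does not.

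Among cell states, the NF-kB and cytokine list gave 3 calls of 19 genes, the interferon response list 2 of 21, and every other list, sex-linked genes aside, 1 or 0. Of the 21 interferon response genes Ifitm3, an antiviral membrane protein, and Gbp2, an interferon-induced GTPase, were higher, by 1.38 ± 0.10 (7.63, 7.62 and 5.87 against 8.78, 9.01 and 7.46) and 1.28 ± 0.09 (6.89, 7.28 and 6.32 against 8.02, 8.51 and 7.81). The median of that list was -0.01, and canonical members such as Isg15 (-0.14), Irf7 (-0.06) and Mx1 (-0.20) did not pass. In the NF-kB and cytokine list the monocyte chemokines Ccl2 (0.85) and Ccl7 (0.77) were higher and C3 lower. The p53 list gave Gdf15 (0.84), the BMP and TGF-beta list Ccn2, the antigen presentation list RT1-CE10 (0.83) and the ribosomal protein list Rpl39l1 (0.61), and Cryab was the call of the heat shock list. The cell cycle list gave no call in 29 genes (median 0.04), with Mki67, the proliferation antigen, between 3.72 and 4.10, although Ccnd1, cyclin D1, which was not on that list, was higher by 0.75 and the cell cycle inhibitor Cdkn2a by 1.01. No gene was called on the lists for immediate early genes (20 measured), axon injury (16), unfolded protein response (18), sterol synthesis (18), fatty acid synthesis (12), hypoxia (18), metal and oxidative stress (12), neuropeptides (19), mature neurons (13), immature neurons (13), synapse (30) or the mitochondrial respiratory chain (82). At the 0.865% called over all genes, most of these lists would hold no call.

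By treatment, the differences of the called genes, which the sign rule fixes in direction, had these sizes. Over the 93 higher genes the median was 0.83 in the Alone pair, 0.76 in the Gpc4 pair and 0.86 in the TSP1 pair, and over the 30 lower genes -0.78, -0.74 and -0.98. The Gpc4 pair had the smallest difference for 41 of the 93 and 16 of the 30. With 1 array for each treatment and culture, a difference of this kind between treatments could not be tested.

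Some genes differed both by culture and by treatment in the same model. Of 64 probe sets called for Gpc4 against Alone, 4 were also called between the cultures, among them the protease inhibitor Serpine2, the BMP and Wnt antagonist Sostdc1 and Il1rl1. Sostdc1 measured 6.04, 7.56 and 6.00 in culture 1 and 7.41, 8.49 and 6.92 in culture 2 (1.07 ± 0.10 between cultures). Of 4 called for TSP1 against Alone, 3 were also called between the cultures: Postn, the methyltransferase Inmt and Ifitm3. Inmt measured 7.44, 7.34 and 5.07 against 8.28, 8.36 and 5.52, so that the TSP1 array was lowest in each culture and the culture difference was 0.77 ± 0.11. Over all probe sets 0.561% were called between the cultures. Both kinds of call share 1 estimate of the spread per probe set, which favours the same probe sets of small spread in each. The counts are thus no independent evidence of each other, and the overlap was not tested.

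Of the 174 probe sets 20 had no gene symbol and 3 had several, and these were not named. Of the 20, 18 were higher in culture 2, the largest by 3.60.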

How the data were processed

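RNA of rat RGCs was measured on 6 Affymetrix Rat Genome arrays, 3 from each culture. The scans were processed by the authors in Affymetrix Expression Console, of which no version was given. What they deposited were log2 RMA values with 2 decimals, background-corrected, normalized between arrays and summarised by probe set. The array medians were 5.96 to 5.99. Precision is limited by the 3 arrays per culture. No further normalization or filter was applied.

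Culture 2 was compared with culture 1 in R 4.3.3 with limma 3.58.1 (two-sided lmFit and eBayes fit, treatment as a block, 2 residual degrees of freedom and 5.7 prior ones), with Benjamini-Hochberg adjustment over 31042 probe sets. A call needed an adjusted p under 0.05 and the same sign in 3 treatments. The code was tested on simulated data. Of the probe sets 20826 had 1 symbol in the platform annotation, 436 several and 9780 none, and 20758 matched the RefSeq table of GRCr8. A gene stands by its probe set with the highest mean over the 6 arrays. Named genes were the 15 largest differences per direction among called genes, the members of the 37 gene lists, and further called genes picked after their values were seen. The comparison and lists were chosen with earlier results of these data known. Lists were described by counts and medians, with no test. Motifs were searched in RefSeq promoters on both strands. Alternatives were median centring, quantile normalization, 2 filters on dim probe sets, no treatment block, other variance models, other thresholds, other probe sets and leaving out each array. Leaving out each array without the block was added after seeing the data. Plots were made in Python 3.11.15 (matplotlib 3.10.9).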

Additional observations from a re-analysis of the deposited data

Results flagged for a closer look

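The list of other leukocytes had opposite medians in 2 treatments, -0.16 in the TSP1 pair and 0.14 in the Gpc4 pair (culture 2 minus culture 1, log2), over 7 dim genes none of which was called, and the difference between the pairs was not tested.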

How the results depend on the processing

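The count of 174 probe sets stayed within 1.5 times under median centring (176), quantile normalization (170), a mean of at least 6 (195) or above the median (197), a robust variance (173), a difference of at least 0.58 (151) and no sign rule (174). The filters kept 124 and 125 of the 174, and 50 of the 174 had a mean below 6. With a trended variance it was 264 (203 higher, 61 lower) and at an adjusted p under 0.10 284 (212 and 72), both holding all 174. Without the treatment block it was 69 (47 and 22), of which 68 were among the 174. A matched t statistic without shared spread gave 11 (6 and 5), none among the 174. Leaving out 1 array in turn left 1 residual degree of freedom and gave 0 calls, higher or lower, in each of the 6 fits (smallest adjusted p 0.12 to 0.19, 1935 to 2597 at an unadjusted p under 0.05). With the block, the array left alone in its treatment carries no information on culture. Leaving out either array of a treatment therefore gave the same result, and these fits are not all separate checks. All 174 probe sets kept their sign, which the same-sign rule fixed in advance. They also had an unadjusted p under 0.05 in each fit, on values that had been used to choose them. Without the block those 6 fits gave 17 to 55 calls, fewest without the Alone array (17) or the TSP1 array (22) of culture 1. In all 6 of them 15 probe sets were kept, of Xist, Eif2s3y, Sparc, Vim, Mdk, Selenop, Gna14, Itgal, Col8a1, LOC100911253 and unnamed ones. The microglia and macrophage median was -0.73 over genes with a mean of at least 6. C1qa and Ctss passed that filter only through culture 1, so the larger size is partly fixed by the filter. The share of variation by culture was 36.5% with that filter and 32.6% after quantile normalization. Among the 15 largest genes per direction, other probe sets turned the direction for Gja1 (-0.12), Apoe (0.11) and Selenop (0.18), and Pf4 missed the threshold after quantile normalization (-1.0). The cause of these changes was not tested. No paired analysis was possible because the replicate number is itself the culture compared and cannot also be a block, and the arrays were matched by treatment instead.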
